A study of Mus musculus with 25 samples.

Results

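The D, E, A and B cyclins and their kinases Cdk1 and Cdk2 were followed through the livers of mice on a normal or a liver-damaging diet, with and without mannose in the drinking water. The 10 genes were chosen by name: Ccnd1, Ccnd2, Ccnd3, Ccne1, Ccne2, Ccna2, Ccnb1, Ccnb2, Cdk1 and Cdk2, out of 56980 genes in the deposited count table. All 10 were found in it by their symbols. Their choice was made with earlier results of these data known.

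All mice were male C57BL/6J, 8 weeks old at the start and 20 weeks old at the end of a study of 12 weeks. Poly-A RNA of whole liver was sequenced from 25 mice. The Normal diet group ate chow and drank water (3 libraries in the first of 2 batches named in the labels, 2 in the second). The FAT-MASH group (3 libraries, first batch) modelled metabolic dysfunction-associated steatohepatitis, a fatty and inflamed liver disease. Its chow held 1.25% cholesterol and 41% sucrose with fat at 21.1%, its water held 23.1 g/L fructose and 18.9 g/L glucose, and carbon tetrachloride, a liver toxin, was injected into the abdomen once a week. The 4 groups on this regimen with mannose (3 libraries each, first batch) kept the chow, the sugars and the toxin. They drank 5% or 20% mannose, a hexose sugar, either through all 12 weeks (5% prevention, 20% prevention) or only in the last 6 weeks (5% therapy, 20% therapy). Normal diet + 5% mannose (2 libraries) and Normal diet + 20% mannose (3 libraries) were in the second batch and received mannose for 12 weeks without the regimen. The toxin injures hepatocytes, so no group separates the diet from the injury. The sources used here do not say which mice shared a cage or litter, and p-values measure the spread between these libraries only.

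A cyclin is the regulatory subunit that switches on a cyclin-dependent kinase, and cyclin levels rise and fall through the cell cycle. D cyclins act with Cdk4 and Cdk6 in G1 and are induced by growth signals. E cyclins act with Cdk2 at the entry into S phase. Cyclin A2 acts with Cdk2 during replication and with Cdk1 later, and the B cyclins act with Cdk1 at the entry into mitosis. Hepatocytes of the adult liver are mostly outside the cycle, and cyclin D1 is known as the cyclin they induce when they re-enter it, for example after part of the liver is removed. In bulk tissue, more cycling cells and more RNA per cycling cell cannot be told apart, and fewer cells of a type and less RNA per cell cannot be told apart either.

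Total counts per library ran from 31298299 to 56010646 in the first batch and from 35971380 to 49752882 in the second. The summed level of 8 hepatocyte markers was 62800 to 112700 CPM (counts relative to an effective library total) across all 25 libraries, and none of these markers was at 0 in any library. All levels are CPM scaled with TMM within a batch, given in the order of the replicate numbers. Tests are edgeR quasi-likelihood tests with Benjamini-Hochberg adjustment over all genes tested, and a gene is called where its adjusted p is under 0.05. All 10 genes passed the filter on low counts in the first batch and 9 in the second, where Ccnb1 failed it.

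Cyclin D1 moved furthest among the D cyclins. Ccnd1 (ENSMUSG00000070348.6, chromosome 7, 144483668 to 144493662, minus strand, GRCm39) was at 9.64, 8.41 and 7.34 CPM on normal diet. FAT-MASH livers had 11.2, 21.2 and 19.0 CPM. With 5% prevention the values were 79.3, 36.5 and 86.9 CPM, and with 20% prevention 122.6, 137.0 and 158.9 CPM. With 5% therapy they were 16.6, 26.2 and 27.3 CPM, and with 20% therapy 161.1, 143.9 and 229.2 CPM. Every library of FAT-MASH lay above every first-batch library of normal diet, and the libraries of 5% prevention, 20% prevention and 20% therapy lay above all of FAT-MASH. Those of 5% therapy overlapped FAT-MASH, and 20% prevention overlapped 20% therapy. In the order of the group means, normal diet had 8.46 ± 1.15, FAT-MASH 17.1 ± 5.23, 5% therapy 23.3 ± 5.87, 5% prevention 67.6 ± 27.2, 20% prevention 139.5 ± 18.3 and 20% therapy 178.1 ± 45.1 CPM (SD, n = 3 each). The neighbours FAT-MASH and 5% therapy, and 20% prevention and 20% therapy, did not differ beyond their spread.

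**Figure D1:**
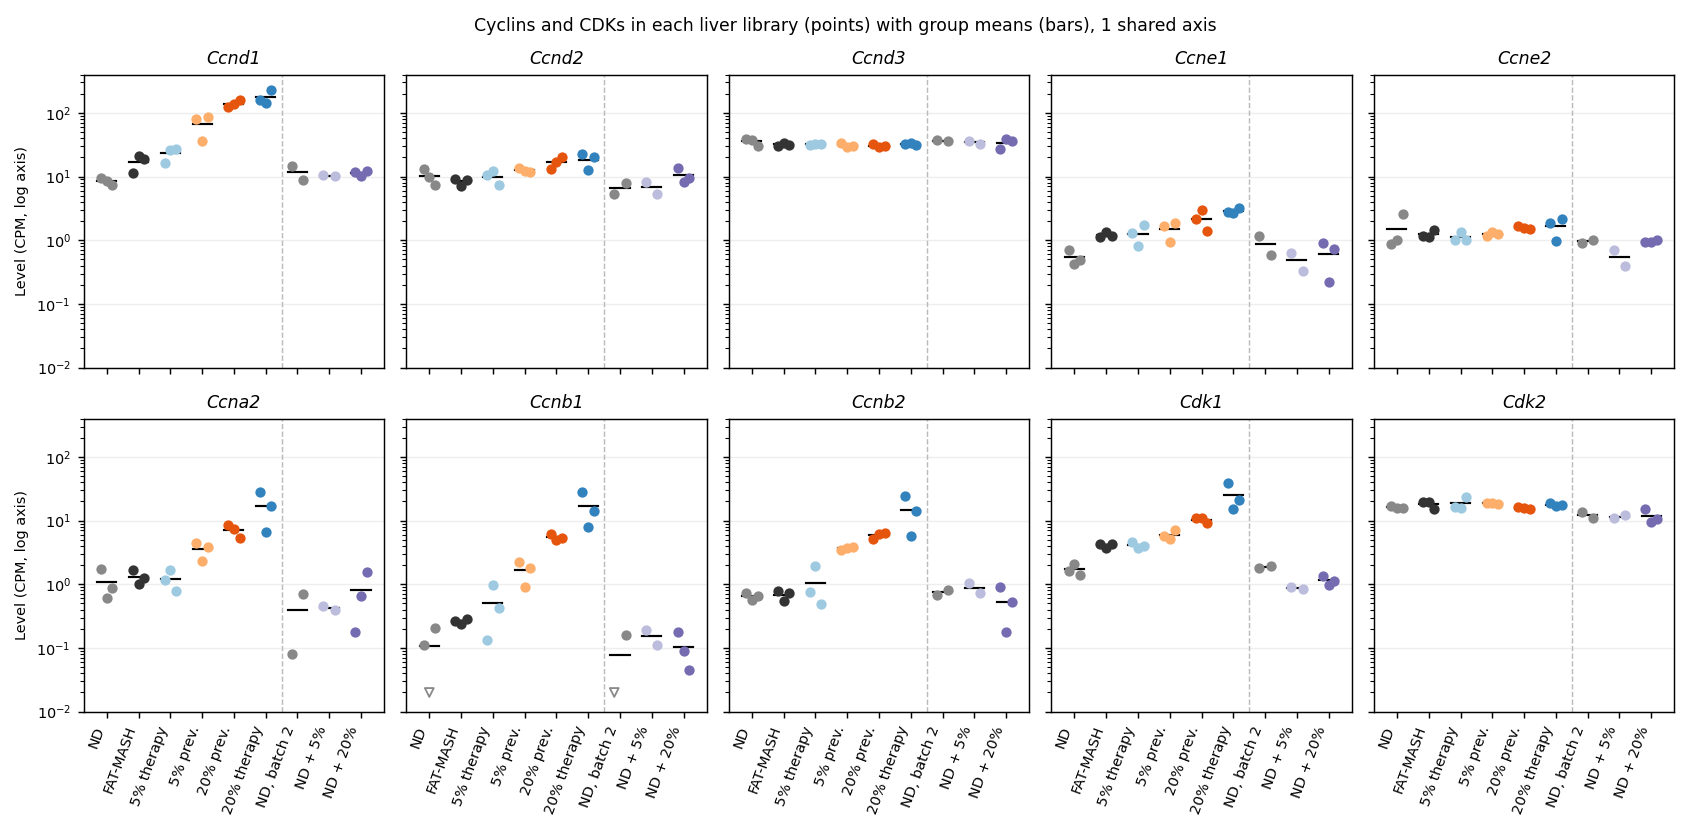
Level of each of the 10 genes in every library (CPM scaled within a batch, log axis shared by all panels) by group, with 1 point per library and an open triangle, drawn at 0.02, for a library with 0 counts. Ccnd1, Ccna2, Ccnb1, Ccnb2 and Cdk1 stand above FAT-MASH in all libraries of 20% prevention and 20% therapy, while in the 18 first-batch libraries Ccnd3 runs from 29.3 to 39.4 CPM and Cdk2 from 15.2 to 23.6 CPM.

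The level of Ccnd1 against FAT-MASH was higher by 1.99 ± 0.27 on the log2 scale with 5% prevention (SE, adjusted p = 0.00121), by 3.03 ± 0.27 with 20% prevention (adjusted p = 5.67e-06) and by 3.39 ± 0.27 with 20% therapy (adjusted p = 3.2e-07). With 5% therapy the difference was 0.46 ± 0.28 (adjusted p = 0.875). FAT-MASH itself stood 1.01 ± 0.29 above normal diet (adjusted p = 0.0249). That last call was lost without Normal diet replicate 2 or 3, without FAT-MASH replicate 2 or 3, and with limma voom, where the adjusted p reached 0.111.

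Cyclin D2, which shares its kinases with cyclin D1, had a smaller range. Ccnd2 (ENSMUSG00000000184.13, chromosome 6, 127102125 to 127129156, minus strand, GRCm39) was at 13.1, 10 and 7.45 CPM on normal diet and at 9.23, 7.13 and 8.90 CPM in FAT-MASH. It was at 13.6, 12.3 and 11.8 CPM with 5% prevention, 13.2, 16.8 and 20.1 CPM with 20% prevention, 10.5, 12.0 and 7.44 CPM with 5% therapy and 22.3, 12.8 and 20.4 CPM with 20% therapy. Both 20% groups lay above FAT-MASH in every library, and 5% therapy overlapped it. The rise was 0.99 ± 0.23 (log2, SE) with 20% prevention (adjusted p = 0.00614) and 1.13 ± 0.23 with 20% therapy (adjusted p = 0.0013). With 5% prevention the libraries also lay above FAT-MASH, but the difference of 0.58 ± 0.23 was not called (adjusted p = 0.225).

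Cyclin D3 was the most abundant D cyclin of the normal liver per length of transcript, and it was not called in any of the 18 comparisons. Ccnd3 (ENSMUSG00000034165.17, chromosome 17, 47815976 to 47910616, plus strand, GRCm39) was between 29.3 and 39.4 CPM in all 18 first-batch libraries. Its difference from FAT-MASH was -0.03 ± 0.10, -0.06 ± 0.10, 0.02 ± 0.10 and 0.02 ± 0.10 on the log2 scale with 5% prevention, 20% prevention, 5% therapy and 20% therapy (SE, adjusted p from 0.775 to 0.997). Scaled by library totals alone, the last difference became 0.32 with an adjusted p of 0.027. That scaling moved the median log2 fold change of all genes in 20% therapy to 0.30.

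The makeup of the D cyclins differed between groups. Taken as CPM per kilobase of the counted exons, Ccnd1 held 25.2% to 26.7% of the summed D cyclins in the 3 first-batch normal-diet livers and Ccnd3 56.7% to 59.8%. In FAT-MASH the share of Ccnd1 was 34.8%, 49.2% and 47.3%, and with 5% therapy 42.8%, 52.8% and 56%. It was 75.9%, 62.5% and 79.9% with 5% prevention, 83.6%, 85% and 85.8% with 20% prevention and 84.9%, 85.6% and 89.5% with 20% therapy. No library of these 3 groups overlapped FAT-MASH. The share of Ccnd2 lay between 3.81% and 10.5% in those 9 libraries.

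The E cyclins, which carry cells into S phase, were low everywhere. Ccne1 (ENSMUSG00000002068.17, chromosome 7, 37797409 to 37806959, minus strand, GRCm39) was at 0.712, 0.418 and 0.489 CPM on normal diet (14 to 26 counts) and at 1.11, 1.35 and 1.18 CPM in FAT-MASH. It was at 1.67, 0.935 and 1.85 CPM with 5% prevention, 2.18, 2.98 and 1.39 CPM with 20% prevention, 1.29, 0.808 and 1.72 CPM with 5% therapy and 2.83, 2.67 and 3.21 CPM with 20% therapy. FAT-MASH did not overlap the first-batch normal-diet libraries, and both 20% groups lay above FAT-MASH in every library. Normal diet replicate 4, scaled within the second batch, was at 1.19 CPM and inside the FAT-MASH range. Only 20% therapy was called against FAT-MASH, at 1.26 ± 0.35 (log2, SE, adjusted p = 0.0155). That call was lost without FAT-MASH replicate 1, without 20% therapy replicate 3 and in the fit of all 25 libraries, where the adjusted p was at most 0.06. The difference was 0.85 ± 0.36 with 20% prevention (adjusted p = 0.126), and FAT-MASH stood 1.16 ± 0.38 above normal diet (adjusted p = 0.0511).

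Ccne2 (ENSMUSG00000028212.17, chromosome 4, 11191351 to 11204779, plus strand, GRCm39), the second E cyclin, was not called in any comparison. It was at 0.876, 0.992 and 2.59 CPM on normal diet, 1.15, 1.14 and 1.44 CPM in FAT-MASH, and 1.16, 1.33 and 1.27 CPM with 5% prevention. It was at 1.67, 1.58 and 1.5 CPM with 20% prevention, 1.02, 1.34 and 0.995 CPM with 5% therapy and 1.86, 0.976 and 2.16 CPM with 20% therapy. The 3 libraries of 20% prevention lay above all of FAT-MASH, but the difference was 0.35 ± 0.39 on the log2 scale (SE, adjusted p = 0.616). With 20% therapy it was 0.43 ± 0.39 (adjusted p = 0.488). Normal diet replicate 3 was the highest library of the gene, and without it the difference of FAT-MASH from normal diet went from -0.25 to 0.39 (adjusted p = 0.586).

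Cdk2 (ENSMUSG00000025358.17, chromosome 10, 128533808 to 128540900, minus strand, GRCm39), the kinase partner of the E cyclins, did not follow cyclin D1. It lay between 15.2 and 23.6 CPM in the 18 first-batch libraries, and its difference from FAT-MASH was 0.05 ± 0.14, -0.19 ± 0.14, 0.06 ± 0.14 and -0.03 ± 0.14 on the log2 scale with 5% prevention, 20% prevention, 5% therapy and 20% therapy (SE). None was called, with adjusted p from 0.42 to 0.994.

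Cyclin A2, the cyclin of S phase and G2, went with the mitotic cyclins. Ccna2 (ENSMUSG00000027715.10, chromosome 3, 36619014 to 36626299, minus strand, GRCm39) was at 1.75, 0.601 and 0.874 CPM on normal diet and 1.66, 1.02 and 1.27 CPM in FAT-MASH. It was at 4.53, 2.35 and 3.79 CPM with 5% prevention, 8.42, 7.48 and 5.39 CPM with 20% prevention, 1.19, 1.67 and 0.784 CPM with 5% therapy and 28.0, 6.68 and 16.9 CPM with 20% therapy. Both prevention groups and 20% therapy lay above FAT-MASH in every library, and 5% therapy overlapped it. The rise was 2.41 ± 0.44 (log2, SE) with 20% prevention (adjusted p = 0.0011) and 3.69 ± 0.43 with 20% therapy (adjusted p = 1.18e-05). With 5% prevention the difference of 1.42 ± 0.44 was not called (adjusted p = 0.105), although DESeq2, the fit of only the 2 groups and the fit without the filter on low counts called it.

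The genes of entry into mitosis came next. Their promoters are shown because cyclin B1, cyclin B2 and Cdk1 moved together and Cdk2 did not. Each is the stretch of 250 bases before the RefSeq start (GRCm38.p6, minus strand of the genome in all 4, read 5′ to 3′ along the gene). Short words of 3 kinds were searched on both strands: CCAAT, the cell cycle homology region written as TTTGAA or TTCGAA, and an E2F-type word written as TTTGGCGC, TTTCCCGC, TTTGGCGG or TTTCGCGC. Capitals mark a match, and a match on the other strand reads as its reverse complement.
Cdk1 (chr10:69352913-69353162): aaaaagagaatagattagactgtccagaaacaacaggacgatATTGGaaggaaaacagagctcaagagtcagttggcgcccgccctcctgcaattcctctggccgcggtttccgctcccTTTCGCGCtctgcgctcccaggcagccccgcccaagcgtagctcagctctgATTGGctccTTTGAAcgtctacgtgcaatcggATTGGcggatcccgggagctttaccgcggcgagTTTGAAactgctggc
Ccnb2 (chr9:70421555-70421804): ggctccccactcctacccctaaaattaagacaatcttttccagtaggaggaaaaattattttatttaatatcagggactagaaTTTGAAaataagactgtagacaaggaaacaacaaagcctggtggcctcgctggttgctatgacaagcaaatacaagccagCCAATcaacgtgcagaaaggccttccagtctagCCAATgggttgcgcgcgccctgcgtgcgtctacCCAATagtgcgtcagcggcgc
Ccnb1 (chr13:100786487-100786736): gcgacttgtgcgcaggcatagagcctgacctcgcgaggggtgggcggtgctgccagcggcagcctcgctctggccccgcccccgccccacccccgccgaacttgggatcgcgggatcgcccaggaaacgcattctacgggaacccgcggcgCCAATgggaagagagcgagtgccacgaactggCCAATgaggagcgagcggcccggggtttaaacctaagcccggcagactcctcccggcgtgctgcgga
Cdk2 (chr10:128705052-128705301): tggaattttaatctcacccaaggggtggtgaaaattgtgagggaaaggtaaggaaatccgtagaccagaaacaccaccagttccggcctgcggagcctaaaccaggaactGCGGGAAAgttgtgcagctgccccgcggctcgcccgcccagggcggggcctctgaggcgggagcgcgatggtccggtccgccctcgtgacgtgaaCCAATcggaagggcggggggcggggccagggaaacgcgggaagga

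The Cdk1 window held 3 CCAAT words, 2 cell cycle homology words (71 and 15 bases before the start) and 1 E2F-type word. The Ccnb2 window held 3 CCAAT words (87, 54 and 21 bases before the start) and 1 cell cycle homology word (167 bases). The Ccnb1 window held 2 CCAAT words (99 and 67 bases) and the Cdk2 window 1 CCAAT and 1 E2F-type word. Among 32851 promoters of the same length, 33.8% held CCAAT, 10.1% held it at least 2 times, 17.1% held the cell cycle homology word, 6.02% held both and 1.96% held an E2F-type word. These matches are descriptions of letters, not measured binding sites. RefSeq promoters were matched for 6 of the 10 genes, and those of Ccne1 and Ccnd3 (2 starts) are not printed. The Ccne1 window held 0 words of any kind searched. Of the Ccnd3 windows, 1 held 0 words and the other held 1 CCAAT word. Whether these words bear on the levels of the genes was not tested. Promoters of Ccnd1, Ccnd2, Ccne2 and Ccna2 were not analysed here.

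Cyclin B1, which with Cdk1 triggers mitosis, was close to the detection limit without mannose. Ccnb1 (ENSMUSG00000041431.17, chromosome 13, 100915158 to 100923078, minus strand, GRCm39) was at 0.110, 0 and 0.210 CPM on normal diet (0 to 6 counts) and at 0.267, 0.240 and 0.282 CPM in FAT-MASH (8 to 14 counts). It was at 2.28, 0.905 and 1.79 CPM with 5% prevention, 6.24, 5.03 and 5.31 CPM with 20% prevention, 0.136, 0.960 and 0.421 CPM with 5% therapy and 28.7, 7.94 and 14.3 CPM with 20% therapy. The libraries of both prevention groups and of 20% therapy lay above all of FAT-MASH, and 20% therapy lay above all other groups. The 5% therapy livers spread below and above FAT-MASH. The rise over FAT-MASH was 2.65 ± 0.62 (log2, SE) with 5% prevention (adjusted p = 0.0256), 4.37 ± 0.60 with 20% prevention (adjusted p = 8.09e-05) and 5.99 ± 0.60 with 20% therapy (adjusted p = 1.31e-06). The first of these was lost without any 1 of the 3 FAT-MASH libraries, without 5% prevention replicate 1 or 3, and with limma voom (adjusted p up to 0.252).

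Cyclin B2, the other B cyclin of dividing cells, had the same order of groups from counts that were higher at the start. Ccnb2 (ENSMUSG00000032218.8, chromosome 9, 70314974 to 70328829, minus strand, GRCm39) was at 0.739, 0.575 and 0.664 CPM on normal diet and 0.782, 0.539 and 0.732 CPM in FAT-MASH. It was at 3.49, 3.65 and 3.87 CPM with 5% prevention, 5.15, 6.15 and 6.35 CPM with 20% prevention, 0.747, 1.92 and 0.497 CPM with 5% therapy and 24.7, 5.71 and 14.4 CPM with 20% therapy. The 5% prevention livers lay close together and clear of FAT-MASH, while the 20% therapy livers were far apart. The rise over FAT-MASH was 2.41 ± 0.45 (log2, SE) with 5% prevention (adjusted p = 0.00899), 3.09 ± 0.45 with 20% prevention (adjusted p = 0.000187) and 4.43 ± 0.45 with 20% therapy (adjusted p = 2.05e-06). The first was lost with limma voom (adjusted p = 0.131).

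Cdk1 (ENSMUSG00000019942.14, chromosome 10, 69170976 to 69188768, minus strand, GRCm39), the mitotic kinase, was called higher already with the regimen alone, where cyclins A2, B1 and B2 were not called. It was at 1.64, 2.09 and 1.40 CPM on normal diet and at 4.27, 3.66 and 4.28 CPM in FAT-MASH, a rise of 1.24 ± 0.28 (log2, SE, adjusted p = 0.00525, lost with limma voom at 0.127). It was at 5.69, 5.16 and 7.17 CPM with 5% prevention, 11.0, 10.9 and 9.13 CPM with 20% prevention, 4.68, 3.71 and 3.94 CPM with 5% therapy and 39.5, 15 and 21.3 CPM with 20% therapy. All 3 livers of 5% prevention lay above FAT-MASH, but the difference of 0.56 ± 0.26 was not called (adjusted p = 0.318). The rise was 1.34 ± 0.26 with 20% prevention (adjusted p = 0.00155) and 2.63 ± 0.26 with 20% therapy (adjusted p = 1.18e-06).

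Within 20% therapy the livers were unequal, and in the same order for Ccna2, Ccnb1, Ccnb2 and Cdk1. Replicate 1 was highest and replicate 2 lowest for these 4. Replicate 2 was also lowest for Ccnd1 and Ccne1, but replicate 3 was highest. Over the 18 first-batch libraries, the Pearson correlation of log2(CPM + 1) was 0.977 for Ccna2 with Ccnb1, 0.973 for Ccna2 with Ccnb2, 0.969 for Ccnb1 with Ccnb2 and 0.938 for Ccna2 with Cdk1. It was 0.886 for Ccnd1 with Ccna2, 0.782 for Ccnd1 with Ccnd2 and 0.00227 for Ccnd1 with Cdk2. The libraries share groups and scaling, so these values describe the libraries and carry no p.

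Against normal diet, the regimen alone raised 2 of the 10 genes, Ccnd1 and Cdk1, beside 7.81% of 19571 genes called higher. For mannose on the regimen, 3 of 10 rose with 5% prevention (Ccnd1, Ccnb1 and Ccnb2), where 0.966% of all genes were called higher. With 20% prevention 6 of 10 rose (Ccnd1, Ccnd2, Ccna2, Ccnb1, Ccnb2 and Cdk1) against 6.83% of all genes. With 20% therapy 7 of 10 rose (these 6 and Ccne1) against 10.2% of all genes. With 5% therapy 0 of 10 were called in either direction against 0.0358% of all genes, and 0 of 10 had an unadjusted p under 0.05 in edgeR. DESeq2 also called 0 of the 10 there, and Ccnd1 was called without the filter on low counts (adjusted p = 0.0277). No member was called lower than FAT-MASH by edgeR. The 4 comparisons share the 3 FAT-MASH libraries. Library totals as scaling turned the split of all genes for 20% therapy from 1989 higher and 2206 lower to 5407 higher and 1113 lower, and for 20% prevention from 1336 higher and 1616 lower to 3066 higher and 949 lower.

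**Figure D2:**
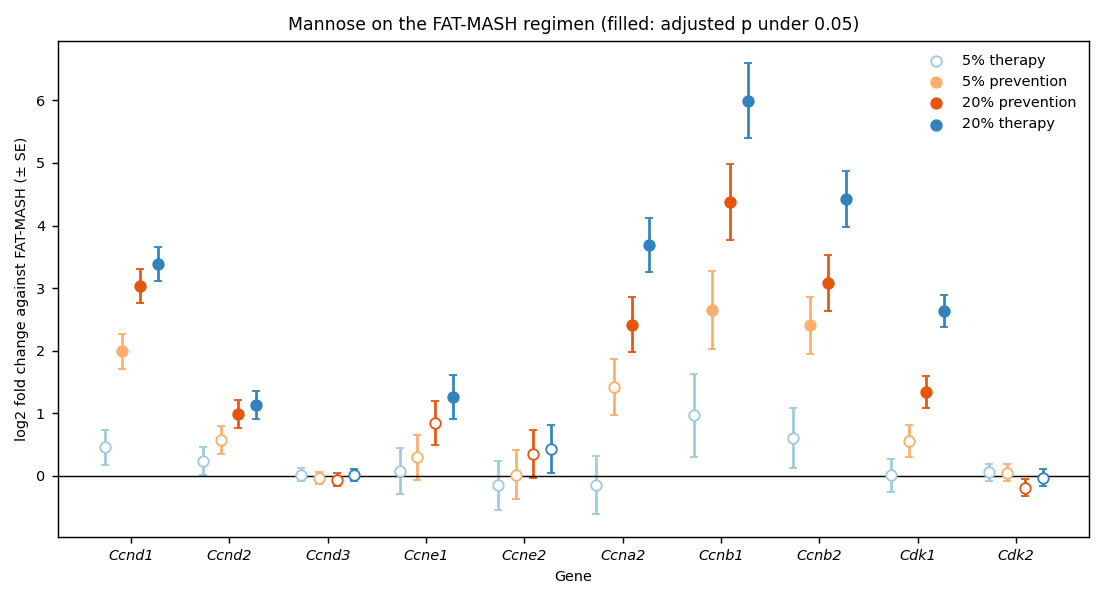
Log2 fold change of each gene against FAT-MASH with 5% prevention, 20% prevention, 5% therapy and 20% therapy (points, error bars SE, filled where the edgeR adjusted p is under 0.05). Ccnb1 reaches 5.99 with 20% therapy, while Ccnd3 and Cdk2 lie within 0.2 of no change in all 4 comparisons.

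Measured from normal diet, 6 of 10 genes rose with 5% prevention (12.3% of all genes were called higher), 7 of 10 with 20% prevention (18.2%), 3 of 10 with 5% therapy (7.04%) and 7 of 10 with 20% therapy (19.4%). The 3 with 5% therapy were Ccnd1 at 1.46 ± 0.29 (log2, SE, adjusted p = 0.00208), Ccne1 at 1.24 ± 0.38 (adjusted p = 0.0387) and Cdk1 at 1.25 ± 0.28 (adjusted p = 0.0055). These comparisons include the regimen and share the normal-diet libraries. Ccnd2 was called with 20% therapy at 0.86 ± 0.23 (adjusted p = 0.00615) although replicate 2, at 12.8 CPM, lay below the highest normal-diet liver. The Ccne1 call with 5% therapy was lost in 9 of 14 alternatives (adjusted p up to 0.161), and that of Cdk1 with limma voom (adjusted p = 0.142), which called 1 of the 10 there.

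The dose was compared within each schedule. With therapy, 20% against 5% mannose raised 7 of 10 genes, where 8.33% of all genes were called higher. Ccnd1 rose by 2.93 ± 0.27 (log2, SE, adjusted p = 2.44e-06), Ccna2 by 3.83 ± 0.44 (1.53e-05), Ccnb1 by 5.02 ± 0.53 (7.79e-06), Ccnb2 by 3.82 ± 0.43 (1.19e-05) and Cdk1 by 2.62 ± 0.26 (3.04e-06). Ccnd2 rose by 0.89 ± 0.23 (0.00963) and Ccne1 by 1.18 ± 0.35 (0.0265). The Ccne1 call was lost in the fit of all 25 libraries and without 5% therapy replicate 1 or 2 or 20% therapy replicate 1 or 3 (adjusted p up to 0.108). That of Ccnd2 was lost without 5% therapy replicate 3 or 20% therapy replicate 1 (adjusted p up to 0.0619). With prevention, 0 of 10 genes were called between the doses, where 0.445% of all genes were called in either direction. Of the 10, 4 had an unadjusted p under 0.05 in edgeR, and DESeq2 called 1. The largest differences there were 1.73 ± 0.49 for Ccnb1 (adjusted p = 0.103), 1.05 ± 0.27 for Ccnd1 (adjusted p = 0.0783) and 0.99 ± 0.42 for Ccna2 (adjusted p = 0.292). Ccnd1, Ccne2, Ccna2, Ccnb1, Ccnb2 and Cdk1 were higher in every 20% prevention liver than in any 5% prevention liver. Cdk2 was lower in every one, at -0.24 ± 0.14 (adjusted p = 0.476). The share of all genes without overlap between these groups was not counted.

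The schedule was compared within each dose. At 5%, therapy was below prevention for Ccnd1, at -1.53 ± 0.27 (log2, SE, adjusted p = 0.0319), which was 1 of 10 genes where 0.107% of all genes were called lower. That call was lost in the fit of only the 2 groups and without 5% prevention replicate 1 or 3 or 5% therapy replicate 1 or 3 (adjusted p up to 0.196). Ccnb2 stood at -1.80 ± 0.44 (adjusted p = 0.091) and Ccna2 at -1.56 ± 0.45 (adjusted p = 0.149). At 20%, 0 of 10 genes were called between therapy and prevention, where 0.0818% of all genes were called in either direction. Of the 10, 4 had an unadjusted p under 0.05 in edgeR, DESeq2 called 2 and limma voom 4. Every 20% therapy liver was above every 20% prevention liver for Cdk1, at 1.29 ± 0.25 (adjusted p = 0.0583), and for Ccnb1, at 1.62 ± 0.46 (adjusted p = 0.145). The same held for Cdk2, although its difference was only 0.16 ± 0.14 (adjusted p = 0.738). How many of all genes lay without overlap between the schedules at 20% was not counted. Without 20% therapy replicate 2, the lowest liver of its group, 3 of 10 were called, namely Ccna2, Ccnb2 and Cdk1.

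The dependence of the dose effect on the schedule was tested directly, as the difference of 20% from 5% under therapy minus the same difference under prevention. It was called above 0 for 5 of 10 genes, where 1% of all genes (196 of 19571) were called higher. Ccnd1 was at 1.88 ± 0.38 (log2, SE, adjusted p = 0.0163), Ccna2 at 2.84 ± 0.61 (0.0202), Ccnb1 at 3.30 ± 0.72 (0.023), Ccnb2 at 3.14 ± 0.59 (0.0133) and Cdk1 at 1.84 ± 0.36 (0.0151). Ccnd2 (0.48 ± 0.32), Ccne1 (0.63 ± 0.50), Ccne2 (0.24 ± 0.55), Ccnd3 (0.02 ± 0.14) and Cdk2 (0.16 ± 0.19) were not called. The count fell to 2 without 5% prevention replicate 1, and to 3 without 20% prevention replicate 1, 5% therapy replicate 1 or 3, or 20% therapy replicate 1.

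**Figure D3:**
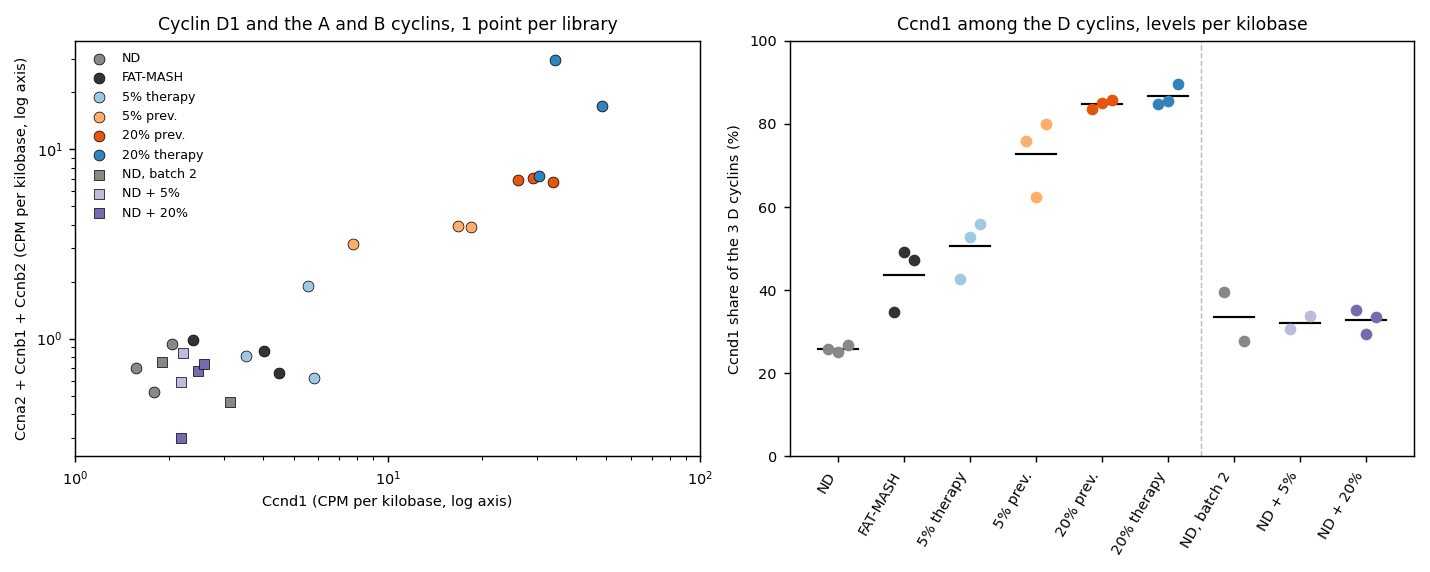
Left, Ccnd1 against the sum of Ccna2, Ccnb1 and Ccnb2 in each library (CPM per kilobase, log axes). Right, Ccnd1 as a percentage of the 3 D cyclins in each library by group. In the first batch the Ccnd1 share in FAT-MASH and 5% therapy livers lies between 34.8% and 56%, above normal diet and below the other 3 mannose groups on the regimen, and the 20% therapy livers reach 89.5%.

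Per kilobase, the order of the 10 genes differed between groups. On normal diet Ccnd3 was highest at 3.49 to 4.49 CPM per kilobase in the first batch, followed by Cdk2 at 2.51 to 2.72, Ccnd1 at 1.56 to 2.05 and Ccnd2 at 0.791 to 1.39. With 20% therapy Ccnd1 was highest in all 3 livers at 30.6 to 48.7 CPM per kilobase. Ccnb2 followed at 3.73 to 16.1 and overlapped Cdk1 at 3.04 to 8.01, Ccna2 at 1.64 to 6.86, Ccnb1 at 1.88 to 6.80 and Ccnd3 at 3.54 to 3.77. In FAT-MASH the mitotic cyclins were low per kilobase, with Ccnb1 at 0.0568 to 0.0668 and Ccnb2 at 0.352 to 0.511, while Cdk1 was at 0.741 to 0.868.

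On normal diet with mannose, none of the 9 genes that could be tested was called. In the second batch Ccnd1 was at 14.8 and 8.90 CPM without mannose, 10.4 and 10.3 CPM with 5% and 11.6, 10.3 and 12.1 CPM with 20%, and the 3 groups overlapped. Cdk1 was at 1.80 and 1.93 CPM without mannose, 0.921 and 0.834 CPM with 5% and 1.35, 0.977 and 1.13 CPM with 20%. Both mannose groups were below the untreated livers for Cdk1, at -1.08 ± 0.51 (log2, SE, adjusted p = 0.869) and -0.69 ± 0.46 (adjusted p = 0.944), and neither was called. Ccnd2 was at 5.31 and 7.92 CPM without mannose, 8.27 and 5.36 CPM with 5% and 13.7, 8.28 and 9.32 CPM with 20%, a difference of 0.66 ± 0.28 at the higher dose (adjusted p = 0.861) between groups that did not overlap. Ccnb1 had 0 to 8 counts in each of the 7 libraries. The tests called 0 of 9 genes at 5%, where 0% of 18462 genes passed, and 0 of 9 at 20%, where 0.00542% passed. Of the 9, 0 and 1 had an unadjusted p under 0.05 in edgeR, and DESeq2 called none of them. With 2 or 3 livers a group, a change of the size of the SE given here could not be detected.

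Ccna2 was at 0.0817 and 0.709 CPM without mannose, 0.461 and 0.389 CPM with 5% and 0.18, 0.666 and 1.58 CPM with 20%. Ccnb2 was at 0.674 and 0.827 CPM without mannose, 1.04 and 0.723 CPM with 5% and 0.901, 0.178 and 0.521 CPM with 20%. Ccne1 was at 1.19 and 0.591, 0.630 and 0.334, and 0.901, 0.222 and 0.724 CPM in the same order of groups. Ccne2 was at 0.899 and 1.02, 0.703 and 0.389, and 0.946, 0.954 and 1.02 CPM. Both livers given 5% lay below the untreated ones for Ccne2, at -0.81 ± 0.68 (log2, SE, adjusted p = 0.948). Ccnd3 ran from 26.8 to 38.3 CPM and Cdk2 from 9.63 to 15.4 CPM over the 7 libraries. The share of Ccnd1 among the D cyclins was 27.7% to 39.6% in this batch, above the first-batch normal diet range.

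The effect of mannose given for 12 weeks was then compared between diets, in a fit of all 25 libraries with a batch term that only the 5 normal-diet libraries without mannose can set. At 5%, the effect on the regimen was called above that on normal diet for 1 of 10 genes, where 0.239% of all genes were called higher. This was Ccnd1 at 2.17 ± 0.42 (log2, SE, adjusted p = 0.0241). That call was lost with limma voom and without 5% prevention replicate 1, Normal diet replicate 4, or Normal diet + 5% mannose replicate 1 or 2. At 20%, 3 of 10 genes were called, where 2.26% of all genes were called higher: Ccnd1 at 3.09 ± 0.40 (adjusted p = 0.000101), Ccnb2 at 3.59 ± 0.73 (0.00473) and Cdk1 at 2.04 ± 0.39 (0.00282). Ccnb1 stood at 3.99 ± 1.26 (adjusted p = 0.0806) and Ccna2 at 1.40 ± 0.92 (adjusted p = 0.42). These 2 values depend on which untreated livers of the second batch are kept. Without Normal diet replicate 5 they were -0.99 for Ccnb1 (adjusted p = 0.833) and -0.84 for Ccna2 (adjusted p = 0.771). That fit left replicate 4 as the only untreated liver of the batch, with 0 counts of Ccnb1 and 4 of Ccna2. Ccnb1 was called by DESeq2, without the filter on low counts and without Normal diet replicate 4. With limma voom the count at 20% fell to 1.

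The other genes of the cycle were taken from 5 lists. Of 12 other cyclins, kinases and subunits 10 could be tested, and few were called. With 20% therapy 2 rose over FAT-MASH, Cks1b, a small subunit bound by cyclin-dependent kinases, at 1.25 ± 0.23 (log2, SE, adjusted p = 0.000658), and Cdk6, a partner of the D cyclins, at 0.37 ± 0.10 (adjusted p = 0.00904). With 20% prevention Cks1b rose by 0.71 ± 0.23 (adjusted p = 0.0488) and Ccnf fell by 0.79 ± 0.25 (adjusted p = 0.0428). With 5% prevention and 5% therapy 0 of 10 were called. Cdk4, the other partner of the D cyclins, was at 40.1, 37.1 and 41.1 CPM in FAT-MASH and 47.5, 46.8 and 47.9 CPM with 20% therapy, groups that did not overlap (0.26 ± 0.10, adjusted p = 0.0687). Its difference from FAT-MASH was between -0.004 and 0.06 in the other 3 mannose groups, where it was not called.

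Of 8 CDK inhibitors, genes that brake the kinases, 3 rose with the regimen itself and 0 fell. Cdkn1a, the inhibitor p21 and a target of p53, was at 9.01, 8.98 and 9.68 CPM on normal diet and 93.3, 34.4 and 68.5 CPM in FAT-MASH, a rise of 2.83 ± 0.34 (log2, SE, adjusted p = 2.47e-05). Cdkn2c rose by 1.47 ± 0.14 (adjusted p = 1.34e-06) and Cdkn1c by 1.2 ± 0.39 (adjusted p = 0.048). Cdkn1a was at 85.1, 51.8 and 58.9 CPM with 5% prevention, 66.6, 102.4 and 69.2 CPM with 20% prevention and 101.3, 87.8 and 77.2 CPM with 20% therapy. None of these was called against FAT-MASH, at -0.003 ± 0.33, 0.28 ± 0.325 and 0.44 ± 0.32 (adjusted p = 0.998, 0.641 and 0.385). With 5% therapy it was at 13.2, 41.3 and 22.3 CPM, at -1.35 ± 0.33 from FAT-MASH (adjusted p = 0.221). Between the doses under therapy, Cdkn1a was higher at 20% by 1.79 ± 0.33 (adjusted p = 0.000874), a comparison in which its libraries did not overlap.

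Cdkn3, a phosphatase of Cdk2 and Cdk1 that is itself expressed in dividing cells, followed the mitotic cyclins. It was at 0.0382, 0.360 and 0.225 CPM in FAT-MASH, 1.52, 1.09 and 1.85 CPM with 5% prevention, 3.12, 3.08 and 3.88 CPM with 20% prevention, 0.272, 0.556 and 0.230 CPM with 5% therapy and 17.2, 3.17 and 7.80 CPM with 20% therapy. The rise of Cdkn3 over FAT-MASH was 2.93 ± 0.69 (log2, SE, adjusted p = 0.0281), 4.10 ± 0.68 (0.00042) and 5.59 ± 0.67 (1e-05) in 5% prevention, 20% prevention and 20% therapy. Cdkn1c fell by 1.29 ± 0.39 with 20% prevention (adjusted p = 0.0299) and by 1.77 ± 0.39 with 20% therapy (adjusted p = 0.003). Cdkn2b, an inhibitor of Cdk4 and Cdk6, rose with 20% therapy by 2.25 ± 0.59 (adjusted p = 0.0109).

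The 3 lists that follow the cycle differed in how far they moved. Of 15 genes of G1 to S control, which include the retinoblastoma and E2F families, 0 were called with 5% prevention or 5% therapy, 2 rose with 20% prevention and 8 rose with 20% therapy, with 0 lower. The median log2 fold change with 20% therapy was 0.52 for the list and 0.0008 for all genes tested. Rbl1, a relative of the retinoblastoma gene, rose there by 1.29 ± 0.27 (SE, adjusted p = 0.00172), Cdc25a, a phosphatase that activates Cdk2, by 1.02 ± 0.24 (0.00406) and E2f1 by 0.91 ± 0.23 (0.00747). With 20% prevention the pair that rose was E2f3 at 0.69 ± 0.14 (adjusted p = 0.00222) and Cdc25a at 0.76 ± 0.24 (adjusted p = 0.0346).

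Of 16 genes of S-phase replication, 3 rose with 5% prevention, 6 rose and 1 fell with 20% prevention, 0 were called with 5% therapy, and 12 rose and 0 fell with 20% therapy, where the median was 0.91. The MCM genes, which encode the replicative helicase, led the list. Mcm5 was at 1.11, 1.32 and 2.54 CPM in FAT-MASH and 14.3, 10.3 and 17.0 CPM with 20% therapy, a rise of 3.08 ± 0.35 (log2, SE, adjusted p = 7.5e-06). Mcm6 rose by 0.89 ± 0.20 with 5% prevention (adjusted p = 0.0256), 0.92 ± 0.20 with 20% prevention (0.00398) and 1.90 ± 0.20 with 20% therapy (2e-06). Tk1, a thymidine kinase of nucleotide salvage, fell with 20% prevention, by 0.87 ± 0.16 (adjusted p = 0.000936). Mcm5 and Tk1 had both been lower in FAT-MASH than on normal diet, at -1.23 ± 0.36 (adjusted p = 0.0286) and -1.03 ± 0.16 (adjusted p = 0.000192), the 2 of the 16 called there.

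Of 16 genes of G2 to M control, 5 rose with 5% prevention (median 1.60), 12 with 20% prevention (median 2.26), 0 were called with 5% therapy (median 0.59) and 13 rose with 20% therapy (median 3.35), with 0 lower in all 4. Ube2c, a ubiquitin-conjugating enzyme of mitotic exit, was at 0.668, 0.479 and 0.845 CPM in FAT-MASH, 4.95, 3.11 and 2.49 CPM with 5% prevention, 11.8, 9.95 and 7.56 CPM with 20% prevention, 1.15, 1.62 and 1.03 CPM with 5% therapy and 51.3, 15.7 and 21.7 CPM with 20% therapy. The rise was 5.47 ± 0.41 with 20% therapy (log2, SE, adjusted p = 1.47e-07), 3.87 ± 0.41 with 20% prevention (1.28e-05) and 2.40 ± 0.42 with 5% prevention (0.00545). Mki67, a marker of dividing cells, was at 1.64, 3.71 and 3.21 CPM in FAT-MASH and 13, 6.34 and 10.5 CPM with 5% prevention, where the groups did not overlap but the difference of 1.82 ± 0.48 was not called (adjusted p = 0.0532). Mki67 was at 2.58, 7.0 and 2.14 CPM with 5% therapy, where replicate 2 was highest, as it was for Ccna2, Ccnb1 and Ccnb2. For Cdk1 the same replicate was the lowest of the group, at 3.71 CPM.

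Cdc25c, a phosphatase that activates Cdk1, had 0 counts in the 3 FAT-MASH livers, so its fold is a lower bound against a floor of 3 counts per library. It was at least 21.7-fold higher with 20% prevention (71 to 90 counts) and at least 46.8-fold higher with 20% therapy (96 to 272 counts). With 5% prevention it was at 0.758, 0 and 1.10 CPM, called higher and at least 8.02-fold higher on the mean. Against normal diet, where Cdc25c had 2 to 14 counts, FAT-MASH was called lower (adjusted p = 0.0423). On the mean it was at least 2.48-fold lower, although the lowest normal-diet count was below the floor of 3. With Cdc25c at its bound the medians of the list were the same to 2 decimals. A median does not move while an outer value stays on its side, so this is no check of the list.

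Markers of other liver cells moved in the same groups. The summed level of 6 cholangiocyte markers was 98.03 to 119.1 CPM in FAT-MASH, 174.7 to 285.1 with 5% prevention, 205.9 to 530.7 with 20% prevention, 89.5 to 134.3 with 5% therapy and 165.9 to 751.7 with 20% therapy, with no marker at 0 in these 15 libraries. Of the 6, 1 rose with 5% prevention, 4 with 20% prevention, 0 with 5% therapy and 5 with 20% therapy, and Krt19, a defining keratin of bile duct cells, was called in none of the 4. The liver with the lowest sum in 20% therapy, replicate 2 at 165.9 CPM, was also the lowest of its group for Ccnd1, Ccna2, Ccnb1, Ccnb2 and Cdk1. At the other end the orders differed. The highest sum and the highest Ccnd1 were in replicate 3, at 751.7 CPM for the sum. Ccna2, Ccnb1, Ccnb2 and Cdk1 were highest in replicate 1, where the sum was 554.2 CPM. In 20% prevention, replicate 3 had the highest sum, 530.7 CPM. It was highest of its group for Ccnd1 and Ccnb2 and lowest for Ccna2 and Cdk1. The summed level of 8 hepatocyte markers was 89580 to 100400 CPM in FAT-MASH, 75420 to 93330 with 20% prevention and 62800 to 70770 with 20% therapy. Of the 8, 1 fell with 5% prevention, 5 with 20% prevention, 0 with 5% therapy and 6 with 20% therapy. Of all 19571 genes tested, 256, 1616, 2 and 2206 were called lower in the same order of groups. Against normal diet, 3 of the 8 were already lower in FAT-MASH, where 1159 of all genes were called lower. Neutrophil markers summed to 15.7 to 18.0 CPM in FAT-MASH and 24.5 to 36.1 with 20% therapy, with 1 of the 5 at 0 in some livers. Sums for macrophages, lymphocytes, endothelium and stellate cells overlapped between FAT-MASH and 20% therapy. For stellate cells and fibroblasts they were 403.3 to 539.4 and 437.9 to 945.2 CPM, and 2 of the 7 markers, Pdgfrb and Des, rose with 20% therapy. Between the doses under therapy, 4 of these 7 were called higher at 20%. Erythroid markers were lower, at 285.6 to 534.7 against 608 to 709.5 CPM. The part of these cells in the changes of the cyclins was not tested.

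The genes most like a member over the 18 first-batch libraries were found by the Pearson correlation of log2(CPM + 1) among 12335 genes with a mean of at least 1 CPM. For Ccna2 they were Pbk (0.987), Ncapg (0.985), Kif22 (0.985), Kntc1 (0.984) and Knstrn (0.982). For Cdk1 they were Arhgap11a (0.976), Mad2l1 (0.963), Ckap2 (0.963), Neurl1b (0.961) and Stil (0.961). For Ccnd1 they were Spon2 (0.97), Anxa5 (0.965), Trim47 (0.962), Arhgef2 (0.962) and Rell1 (0.961). The sets of Ccna2, Cdk1 and Ccnd1 shared no gene with each other. For Ccne2 the values were lower, led by Vps37d (0.777), Itih5 (0.725), Alox12 (0.722), Zranb3 (0.708) and Arhgef7 (0.698). All these libraries share scaling and groups, and the correlations carry no p.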

How the data were processed

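Per the submitters' processing notes, the authors aligned the reads of 25 mouse livers with STAR to GRCm39 and used featureCounts 2.0.6. Per the file headers, the deposited table came from featureCounts 2.0.1 with GENCODE M31. Its values are raw counts as deposited by the authors, whole numbers with no normalization, for 56980 genes, and 52073 of these got a symbol from a table of gene identifiers. No strand, read-pair or multimapping option stands in the command, per the file headers, so a gene and an antisense partner cannot be told apart. Of the counts between 2 and 50, 81.2% were even, so a low count may stand for fewer fragments than reads.

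The main test was the edgeR 4.0.16 quasi-likelihood test (R 4.3.3, TMM, filterByExpr, Benjamini-Hochberg, threshold 0.05). It was fitted once on the 18 first-batch libraries (19571 genes), once on the 7 of the second batch (18462 genes) and once on all 25 with batch as a covariate (21373 genes), for 18 comparisons. It was tried on simulated counts. CPM per kilobase uses the gene lengths of the deposited table, and SEs come from the scaled information of the fit. A group at 0 was bounded by 3 counts in each library, a limit for counting error alone. Any 2 libraries of 1 group differed by more than sampling noise (chi-square over its degrees of freedom at least 19.3). Replicate numbers did not pair libraries: deviations of 45 pairs with the same number had a median correlation of -0.03.

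Named genes were the members, up to 4 genes of each list with the smallest p, and Mki67, Cdkn1a and Cdk4. Krt19 and single livers were named after their values were seen. Members and lists were chosen with earlier results of these data known. The alternatives were DESeq2 1.42.0, RLE size factors, library totals, no filter on low counts, limma 3.58.1 voom with quality weights, the replicate block, all 25 libraries, only the groups compared, and leaving out each library.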

Additional observations from a re-analysis of the deposited data

Results flagged for a closer look

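Ccne2 in Normal diet replicate 3 was at 2.49 CPM when all 25 libraries were scaled together, while the other 4 normal-diet livers were at 0.838 to 1.17 CPM. The gap to the nearest liver was 0.799 of the range, past the critical value for 5 samples. Chance flags about 1 in 20 groups, and the rule was applied to each of the 10 genes. The 5 livers come from 2 batches, which the rule does not take into account.

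The effect of the dose differed between schedules by a test of the difference itself, on the log2 scale by 1.88 for Ccnd1, 2.84 for Ccna2, 3.30 for Ccnb1, 3.14 for Ccnb2 and 1.84 for Cdk1. The effect of mannose differed between the regimen and normal diet by the same kind of test, at 5% by 2.17 for Ccnd1, and at 20% by 3.09 for Ccnd1, 3.59 for Ccnb2 and 2.04 for Cdk1.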

How the results depend on the processing

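Of 2564 alternative values for 178 results on single genes, 2447 kept their side of the threshold, 66 lost a call, 51 gained one and 0 called values turned sign. Of those 2447, 97 had the other sign, with no call under either setting. Counts of the 10 genes called moved as follows, and the cause was not tested. For 20% against 5% under prevention (0), DESeq2 gave 1, no filter on low counts 4 and voom 1. For therapy against prevention at 5% (1), DESeq2 gave 3, no filter 4 and only the groups compared 0. For therapy against prevention at 20% (0), DESeq2 gave 2, library totals 1, no filter 4, voom 4 and all 25 libraries 1. No filter gave 5 and voom 1 for 5% prevention against FAT-MASH (3), and no filter gave 1 for 5% therapy against FAT-MASH (0). Voom gave 0 for FAT-MASH against normal diet (2) and 1 for 5% therapy against normal diet (3). For the difference between diets, DESeq2 gave 2, no filter 3 and voom 0 at 5% (1), and voom gave 1 at 20% (3).

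Leaving out each library in turn gave 1 to 2 for FAT-MASH against normal diet, 0 to 2 for therapy against prevention at 5%, 0 to 3 at 20%, 2 to 5 for dose by schedule and 0 to 1 for the difference between diets at 5%. With the replicate block, as an unpaired number, 2 genes were called for FAT-MASH against normal diet, 7 for 20% therapy against FAT-MASH, 5 for dose by schedule and 2 for 5% therapy against normal diet (3 without it). Of 18 libraries, 6 correlated best with their own number. All genes called fell from 87 to 28 with the block for 20% against 5% under prevention. All genes called for 5% therapy against FAT-MASH were 7 by edgeR, 89 by DESeq2 and 339 with no filter. Library totals shifted the median log2 fold change of all genes by 0.30 for 20% therapy and 0.20 for 20% prevention. Few counts limit Ccnb1, Ccne1 and Ccne2 without mannose.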
